A study of Oryza sativa with 12 samples.

Results

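Hd1 and MADS14 are flowering regulators of rice, and their transcripts were followed here in leaves through every probe set matched to either gene. A probe set is a group of short array probes read as 1 value, and some probe sets may match more than 1 transcript. Of the 57258 probe sets on the array, 5 belonged to these 2 genes: 1 for Hd1 (locus LOC4340746) and 4 for MADS14 (locus LOC4334140). Of the 4 for MADS14, 3 share an identifier stem and are called here by their suffixes, x_at, a_at and plain at, and the 4th, with a stem of its own, is called the separate probe set. All 5 passed the filter on low values, among 32012 probe sets tested. In the reference annotation, MADS34, another MADS-box gene, is the next gene after MADS14.

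The study profiled the youngest leaves that had fully expanded, from plants aged 2.5 months, on 12 Affymetrix arrays, in 4 groups of 3 arrays labelled as biological replicates. The groups were osnox2 drought, WT drought, osnox2 control and WT control. osnox2 is a T-DNA insertion mutant, and WT is the wild type, cultivar Dongjin. Drought leaves were taken on day 15 after watering stopped, at a soil moisture of 8.5%, and control leaves on day 0, at 47.3%. All plants grew in a greenhouse under 16 h of light and 8 h of dark, and a mutant and a wild-type plant shared each pot. The series title names the NADPH oxidase OsRbohA and asks about development and drought. No probe set was matched to that gene by name, so its level was not checked here. With 1 mutant line, an effect of the disrupted gene and any other difference between the lines cannot be told apart. Drought and the later sampling day cannot be told apart either, and in whole leaves fewer cells of a type and less RNA per cell cannot be told apart.

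Rice flowers when the photoperiod pathway, which reads day length through the circadian clock and the phytochromes, lets leaves make the florigen Hd3a. Hd1 is the rice relative of Arabidopsis CONSTANS, a transcription factor that promotes Hd3a in short days and represses it in long days, and its transcript follows a daily rhythm. MADS14 is a MADS-box transcription factor of the APETALA1/FRUITFULL group, acts downstream of florigen, and helps to turn the shoot apex into an inflorescence.

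Values are log2 MAS5 signals as deposited, where 1 unit is a factor of 2, and differences are between group means with their SE. The number of arrays limits the precision. Array medians lay between 5.08 and 5.43. Of 6 measured leaf marker genes (of 8 listed), 5 were above the array median on all 12 arrays. Of 12 floral organ markers, 1 (MADS16) was above it on all 12 arrays and 6 were below it on all 12. Of the 6 control arrays, 3 stood apart from the other 9 in their clock genes: osnox2 control replicates 1 and 2 and WT control replicate 1. LHY, a clock gene that peaks at dawn, lay between 13.51 and 13.79 on these 3 arrays and between 7.31 and 8.99 on the rest. PCL1, an evening clock gene, lay between 5.59 and 6.16 on the 3 arrays and between 14.33 and 14.99 on the rest. Results are given with and without these 3 arrays. Without them osnox2 control has 1 array, which the model assumes to vary like the other groups.

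The Hd1 transcript was low on the 3 control arrays that stood apart and high on every other array, whatever the genotype or watering. In osnox2 drought leaves Hd1 was at 8.81, 9.04 and 9.03 on the 3 arrays, and in WT drought leaves it was at 8.64, 8.61 and 9.24. In osnox2 control leaves it was at 5.34, 5.99 and 8.86, and in WT control leaves at 6.41, 9.71 and 9.64. The 2 drought groups overlapped, and each control group held both low and high arrays. On the linear scale the 3 low arrays had signals of 40.56, 63.46 and 84.94, and the other 9 lay between 390.1 and 837.9. The 2 highest arrays were both WT control, so the control groups held the lowest and the highest Hd1 values of the study.

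**Figure D1:**
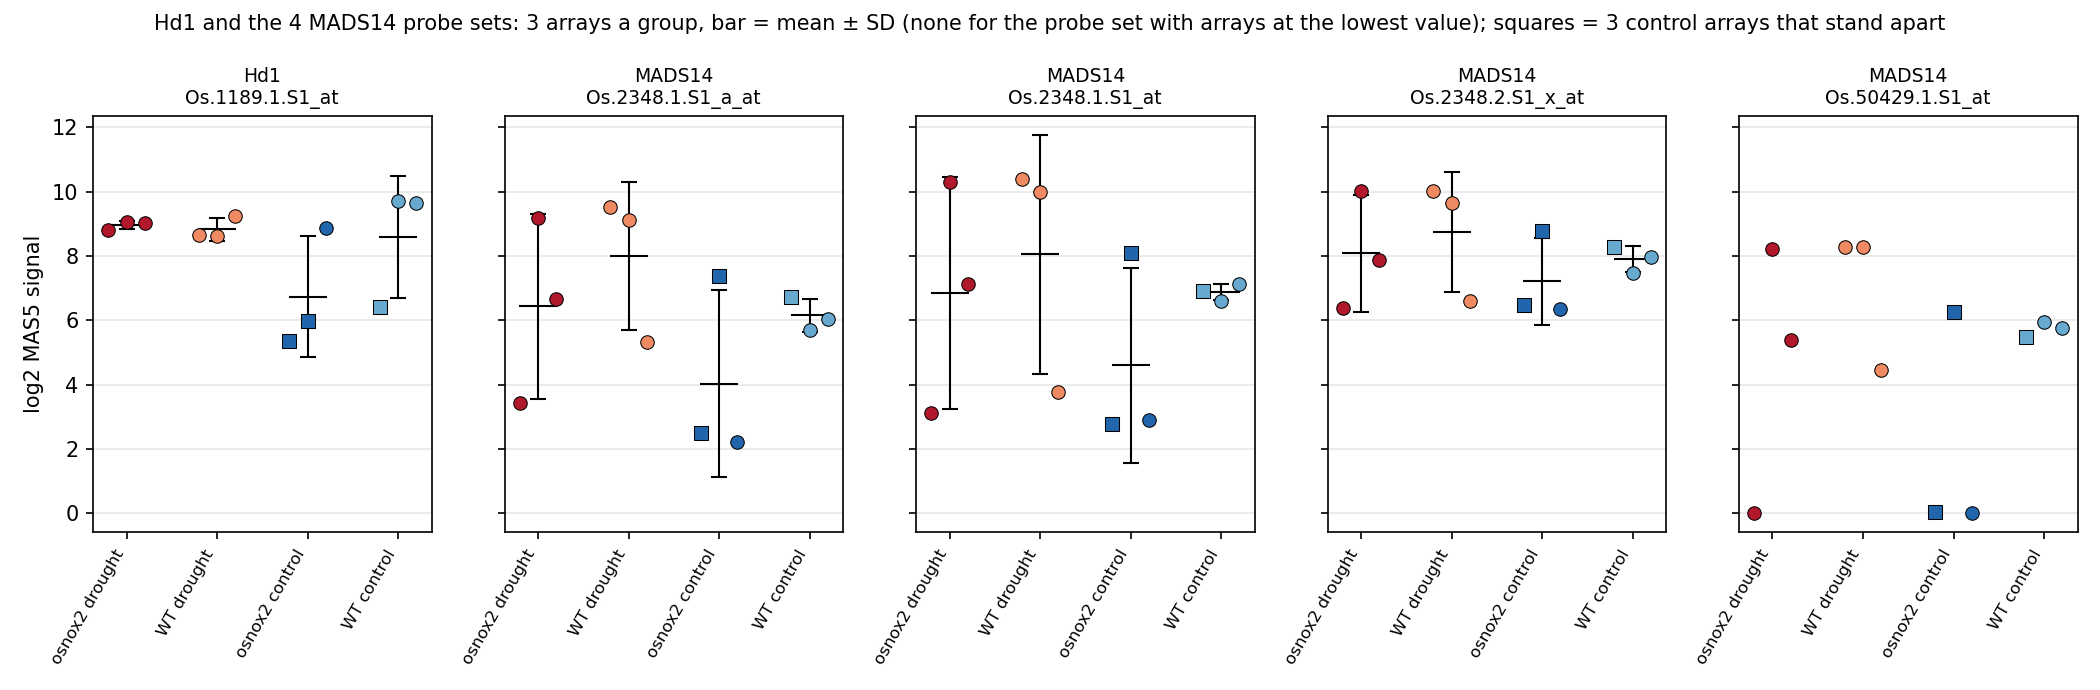
Log2 MAS5 signal of Hd1 and of the 4 MADS14 probe sets on each of the 12 arrays, by group, with bars for the mean ± SD of 3 arrays (no bars for the probe set with arrays at the lowest value) and squares for the 3 control arrays that stand apart. Hd1 is at 5.34 to 6.41 on the squares and at 8.61 to 9.71 on every other array, while the MADS14 probe sets spread widely within 3 of the 4 groups.

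By group, Hd1 averaged 8.96 ± 0.13 in osnox2 drought leaves, 8.83 ± 0.36 in WT drought leaves, 6.73 ± 1.87 in osnox2 control leaves and 8.59 ± 1.89 in WT control leaves (SD, n = 3 each). From the highest, the order was osnox2 drought, WT drought, WT control and osnox2 control. Each of these neighbours overlapped on single arrays. The SDs of the control groups were wider than those of the drought groups.

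No comparison of Hd1 passed the threshold of an adjusted p of 0.05 in the limma model of all 12 arrays. Hd1 was higher by 2.23 ± 0.96 in osnox2 drought than in osnox2 control leaves (95% interval 0.11 to 4.35, limma adjusted p = 0.26). In WT leaves the drought minus control difference was 0.24 ± 0.96 (interval -1.88 to 2.36, adjusted p = 0.957). osnox2 minus WT under control was -1.86 ± 0.96 (adjusted p = 0.747). Under drought the osnox2 minus WT difference was 0.13 ± 0.96 (interval -1.99 to 2.25, adjusted p = 1). The drought response of osnox2 minus that of WT was 1.99 ± 1.36 (adjusted p = 0.986), so a difference in response between the genotypes was not shown.

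Without the 3 control arrays, the residual SD of Hd1 within groups was 0.24, against 1.34 with all 12. The 3 arrays left out held the lowest Hd1 values of the study, so the Hd1 values without them are a description. The drought difference in osnox2 was then 0.10 ± 0.25 (interval -0.48 to 0.68, adjusted p = 0.906), so the value of 2.23 rests on osnox2 control replicates 1 and 2. In WT the sign turned: drought minus control was -0.85 ± 0.20 (interval -1.30 to -0.39, limma adjusted p = 0.0654). Both remaining WT control arrays, at 9.71 and 9.64, lay above all 3 WT drought arrays. How many of all probe sets were separate on these arrays was not counted. osnox2 minus WT under control was -0.81 ± 0.27 (adjusted p = 0.318), and under drought it was 0.13 ± 0.18 (interval -0.28 to 0.54, adjusted p = 0.833). The interaction was 0.95 ± 0.32 (limma adjusted p = 0.516). None of these 5 comparisons of Hd1 passed.

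In 1 setting a comparison of Hd1 did pass. Without osnox2 control replicate 3, the control array of that genotype with high Hd1, the drought difference in osnox2 was 3.30 ± 0.82 (limma adjusted p = 0.0242). In that setting 5505 of all 32012 probe sets tested were called for drought in osnox2, against 170 with all 12 arrays. The 2 osnox2 control arrays left were both among the 3 that stood apart. On these arrays PCL1 was low, like Hd1, and LHY was high instead, at the values given above. The part of these clock genes in the Hd1 difference was not tested.

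**Figure D2:**
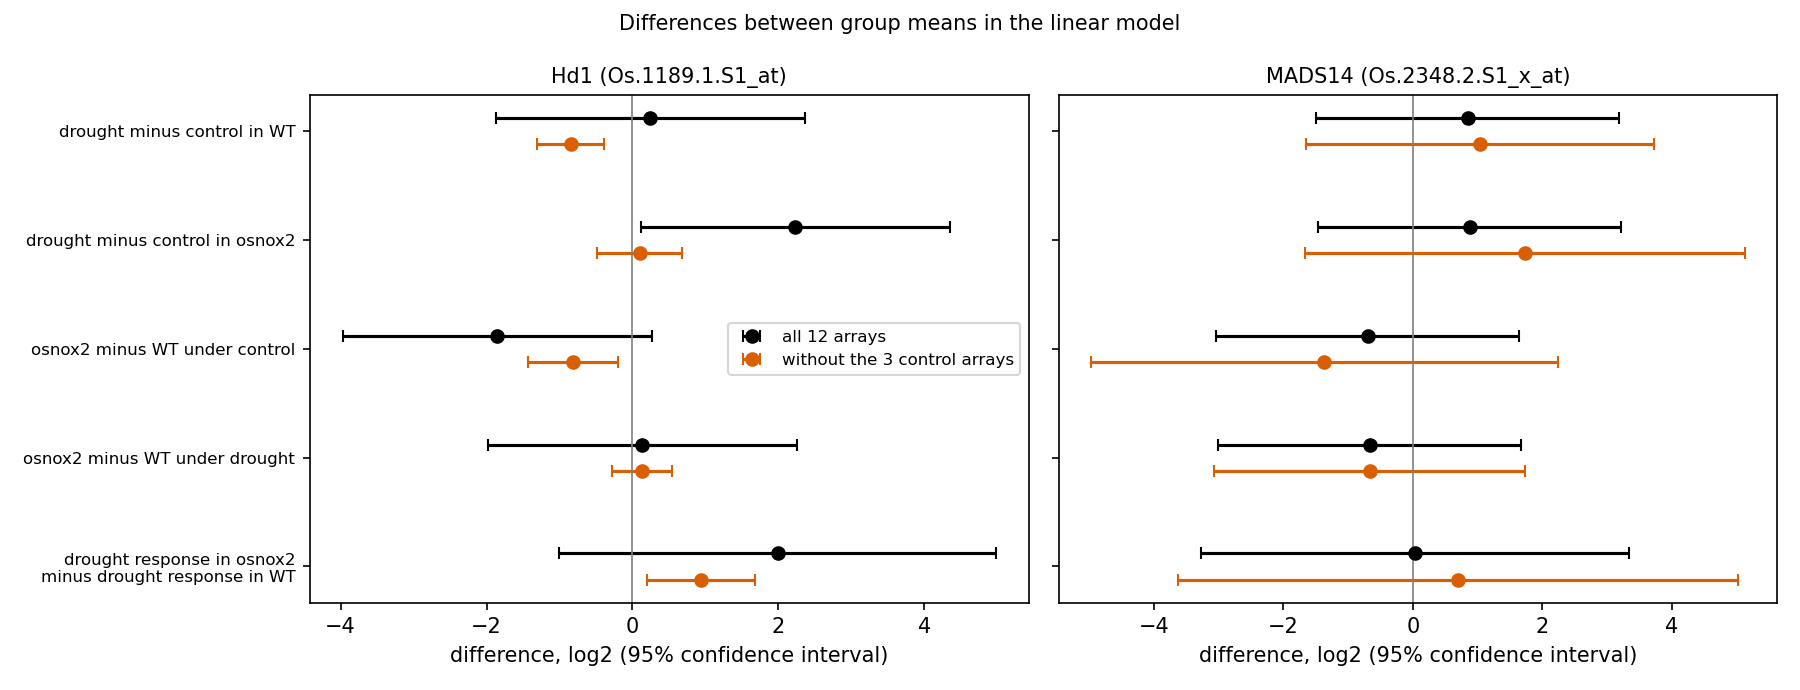
Differences between group means on the log2 scale for Hd1 and for the x_at probe set of MADS14 in the 5 comparisons, with 95% confidence intervals, from all 12 arrays and without the 3 control arrays that stand apart. The Hd1 intervals narrow without those arrays and the WT drought difference is 0.24 with them and -0.85 without them, while the MADS14 intervals stay wide and include 0 in both. Those 3 arrays hold the lowest Hd1 values.

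The genes with profiles most like that of Hd1 had the same 3 low arrays. Profiles over the 12 arrays were centred on their own means, and likeness was the root mean square difference from Hd1, over 2638 tested probe sets matched to 1 named gene. OsSAPK7, a protein kinase of the SnRK2 family that takes part in stress and abscisic acid signalling, was closest at 0.17. OsSAPK7 was at 9.37, 9.69 and 9.73 in osnox2 drought leaves, 9.19, 9.32 and 9.91 in WT drought leaves, 6.52, 6.76 and 9.65 in osnox2 control leaves and 7.11, 10.31 and 10.11 in WT control leaves. It was low on the same 3 arrays as Hd1, and for both genes WT control replicate 2 was the highest array. The next 4 were BBD1 at 0.365, the clock gene PRR1 at 0.375, ADF-1 at 0.387 and the NADPH oxidase gene OsrbohB at 0.414. PRR1, the rice relative of Arabidopsis TOC1, lay between 9.13 and 9.34 on the 3 arrays and between 11.92 and 12.67 on the rest. The arrays are shared by all these genes, so the likeness is a description.

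**Figure D3:**
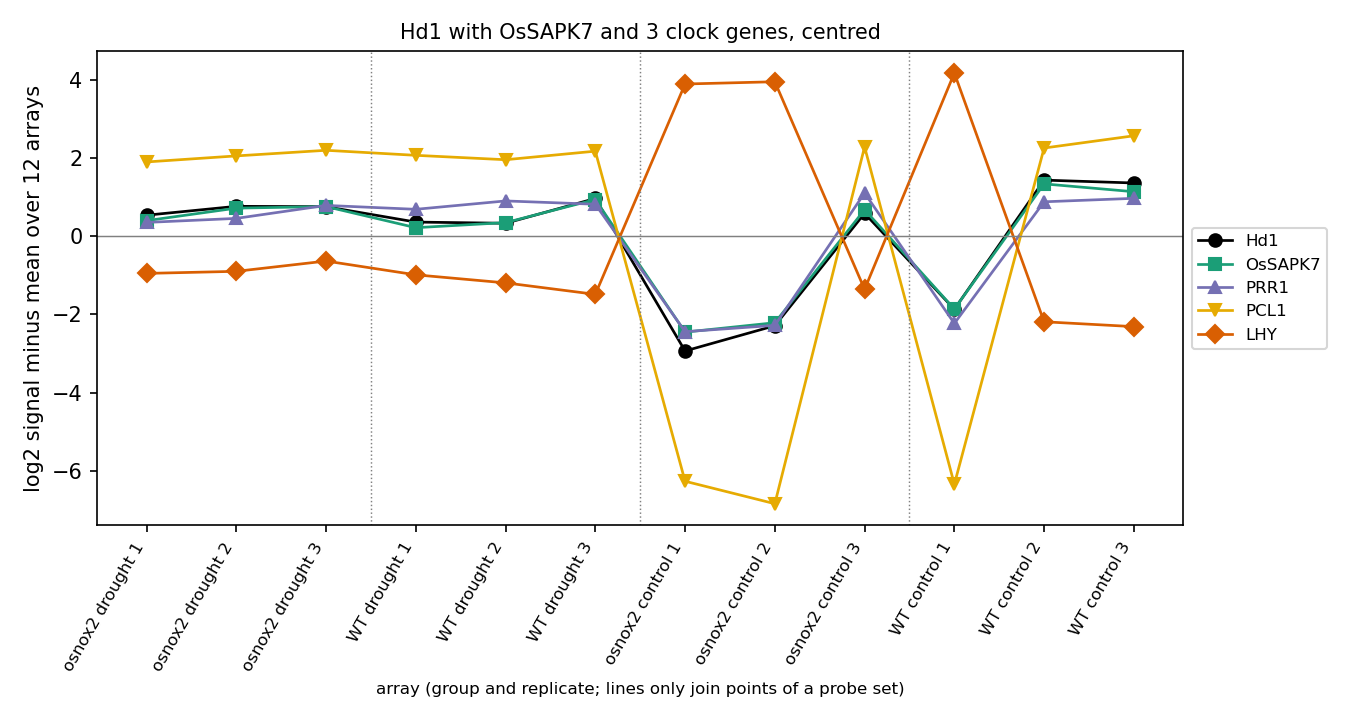
Log2 signal minus its mean over the 12 arrays for Hd1, OsSAPK7 and the clock genes PRR1, PCL1 and LHY, array by array, with lines joining the points of 1 probe set. Hd1, OsSAPK7, PRR1 and PCL1 are all low on osnox2 control replicates 1 and 2 and WT control replicate 1, where LHY is high instead.

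MADS14 differed widely between arrays of the same group, and the 3 control arrays that stood apart did not share a level. On the x_at probe set, MADS14 was at 6.38, 10.00 and 7.88 in osnox2 drought leaves and at 10.01, 9.64 and 6.61 in WT drought leaves. In osnox2 control leaves it was at 6.49, 8.78 and 6.36, and in WT control leaves at 8.27, 7.48 and 7.96. Both drought groups and the osnox2 control group ran from low to high, so all 4 groups overlapped, and only the WT control arrays lay close together. Group means were 8.09 ± 1.82 in osnox2 drought, 8.75 ± 1.87 in WT drought, 7.21 ± 1.36 in osnox2 control and 7.90 ± 0.40 in WT control (SD, n = 3 each). From the highest, the order was WT drought, osnox2 drought, WT control and osnox2 control, and each of these neighbours overlapped on single arrays.

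The other MADS14 probe sets put the arrays in nearly the same order with larger distances. The suffix x_at marks a probe set whose probes may also match other transcripts, and a_at one that matches several transcripts of a gene. On the plain at probe set, MADS14 was at 3.12, 10.31 and 7.14 in osnox2 drought leaves and at 10.38, 10.00 and 3.77 in WT drought leaves. On the same probe set it was at 2.79, 8.09 and 2.91 in osnox2 control leaves and at 6.92, 6.60 and 7.11 in WT control leaves. The 12 arrays thus spanned 7.59 log2 units, with linear signals from 6.912 on osnox2 control replicate 1 to 1328 on WT drought replicate 1.

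On the a_at probe set, MADS14 was at 3.44, 9.19 and 6.68 in osnox2 drought leaves, 9.52, 9.10 and 5.34 in WT drought leaves, 2.49, 7.39 and 2.22 in osnox2 control leaves and 6.72, 5.69 and 6.05 in WT control leaves. The same arrays were high and low as on the plain at probe set. The separate probe set was at the lowest value of the table on osnox2 drought replicate 1 and osnox2 control replicate 3. There the other osnox2 drought arrays were at 8.21 and 5.37, and WT drought arrays were at 8.29, 8.28 and 4.46. The other osnox2 control arrays were at 0.04 and 6.24, and WT control arrays were at 5.49, 5.96 and 5.77. Values at the lowest value have no order among themselves.

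All 4 MADS14 probe sets had the same 3 highest arrays: WT drought replicates 1 and 2 and osnox2 drought replicate 2. On all 4, osnox2 control replicate 2 ranked 4 and WT drought replicate 3 ranked 9 of 12. The 3 lowest arrays were also shared, osnox2 drought replicate 1 and osnox2 control replicates 1 and 3. The replicate numbers did not line up between the genotypes. Of the drought arrays numbered 1, WT was high and osnox2 was low. Of those numbered 2 both were high, and of those numbered 3 osnox2 was intermediate and WT was low.

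**Figure D4:**
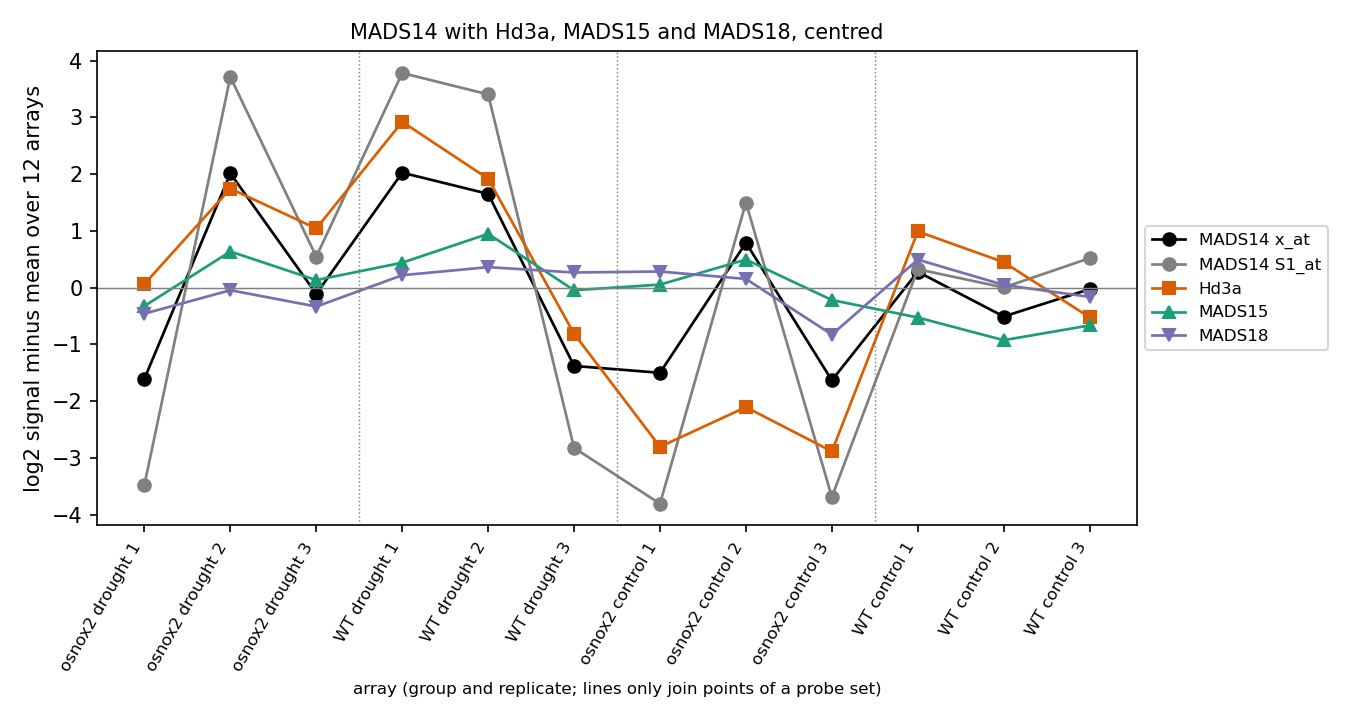
Log2 signal minus its mean over the 12 arrays for the x_at and plain at (S1_at) probe sets of MADS14 and for Hd3a, MADS15 and MADS18, array by array, with lines joining the points of 1 probe set. Both MADS14 probe sets and Hd3a have the same 3 highest arrays, WT drought replicates 1 and 2 and osnox2 drought replicate 2.

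No MADS14 comparison passed in the limma model. On the x_at probe set, drought minus control was 0.88 ± 1.06 in osnox2 (interval -1.46 to 3.22, adjusted p = 0.691) and 0.85 ± 1.06 in WT (interval -1.49 to 3.19, adjusted p = 0.832). osnox2 minus WT was -0.70 ± 1.06 under control (adjusted p = 0.877) and -0.67 ± 1.06 under drought (adjusted p = 1). The interaction was 0.03 ± 1.50 (interval -3.28 to 3.34, adjusted p = 0.999). These intervals reach past 1 log2 unit in either direction, so a p above the threshold does not show that MADS14 was alike in the groups.

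On the other 3 MADS14 probe sets the differences had the same signs as on x_at. Drought minus control in osnox2 was 2.26 ± 2.13 on the plain at, 2.40 ± 1.69 on the a_at and 2.43 ± 2.13 on the separate probe set. The lowest adjusted p of these 3 was 0.467, and in WT it was 0.754. osnox2 minus WT under control was -2.28 ± 2.13, -2.12 ± 1.69 and -3.64 ± 2.13 in the same order. With an offset of 64 added to the signals before the log, these differences were -0.61, -0.40 and -0.49, and those for drought in osnox2 were 1.18, 0.95 and 0.69. The 4 probe sets report 1 gene in the same RNA, so they are not separate evidence. Fitted differences on the separate probe set also depend on where the lowest value lies.

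Without the 3 control arrays, drought minus control of MADS14 on x_at was 1.73 ± 1.49 in osnox2 (adjusted p = 0.666) and 1.03 ± 1.17 in WT (adjusted p = 0.694). osnox2 minus WT under control was then -1.37 ± 1.58 (adjusted p = 0.875). The osnox2 control group here is replicate 3 alone, the lowest of the 12 arrays on this probe set. Leaving out single arrays turned signs: drought minus control in osnox2 was -0.08 without osnox2 drought replicate 2, and osnox2 minus WT under drought was 0.19 without osnox2 drought replicate 1. Of the floral organ markers, the log2 of the summed signal was 8.72 to 9.19 in osnox2 control leaves, against 9.54 to 10.21 in WT control leaves. It was 9.59 to 10.22 in osnox2 drought leaves and 9.94 to 10.3 in WT drought leaves. MADS16 was the highest of these markers on every array, so it weighed most in the sum. It was at 7.36 to 8.63 in osnox2 control leaves and 8.97 to 9.94 in WT control leaves. The 2 control groups overlapped for DL and MADS4. MADS21 went the other way, at 3.84 to 4.98 in osnox2 control leaves and 0 to 2.25 in WT control leaves, below the array median throughout. The sum therefore does not show that the markers were lower as a group. The part of other cell types in the MADS14 values was not tested.

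Over both genes, 0 of the 5 probe sets were called in each of the 5 comparisons with all 12 arrays. At an unadjusted limma p under 0.05 there was 1, Hd1 for drought in osnox2, a level that 18% of all probe sets tested reached in that comparison. Of all probe sets tested, 0.531% were called for drought in osnox2 and 0.131% for drought in WT. For osnox2 against WT it was 0.131% under control and 0.103% under drought, and for the interaction 0%. With so few calls over the array, 0 of 5 is near the background. In none of the 4 comparisons between groups were the 2 groups of a member separate, and over all probe sets tested 22.8% were separate for drought in osnox2, 18% for drought in WT, and 8.47% under control and 16.5% under drought for osnox2 against WT.

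The spread of single arrays around their group means was wide for both genes. This residual SD had a median of 0.418 over all probe sets tested. It was 1.34 for Hd1, larger than that of 92.49% of the probe sets. For MADS14 it was 1.48 on the x_at, 2.36 on the a_at, 2.97 on the separate and 3.00 on the plain at probe set. The last of these ranked 22 from the largest, with 99.93% of probe sets below it. Without the 3 control arrays Hd1 had 0.24, with 45.73% of probe sets below it. The MADS14 probe sets then had 1.66 to 3.27, with at least 98.15% below them. The 3 arrays held the lowest Hd1 values, so its smaller SD without them follows from the choice of arrays and is a description.

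**Figure D5:**
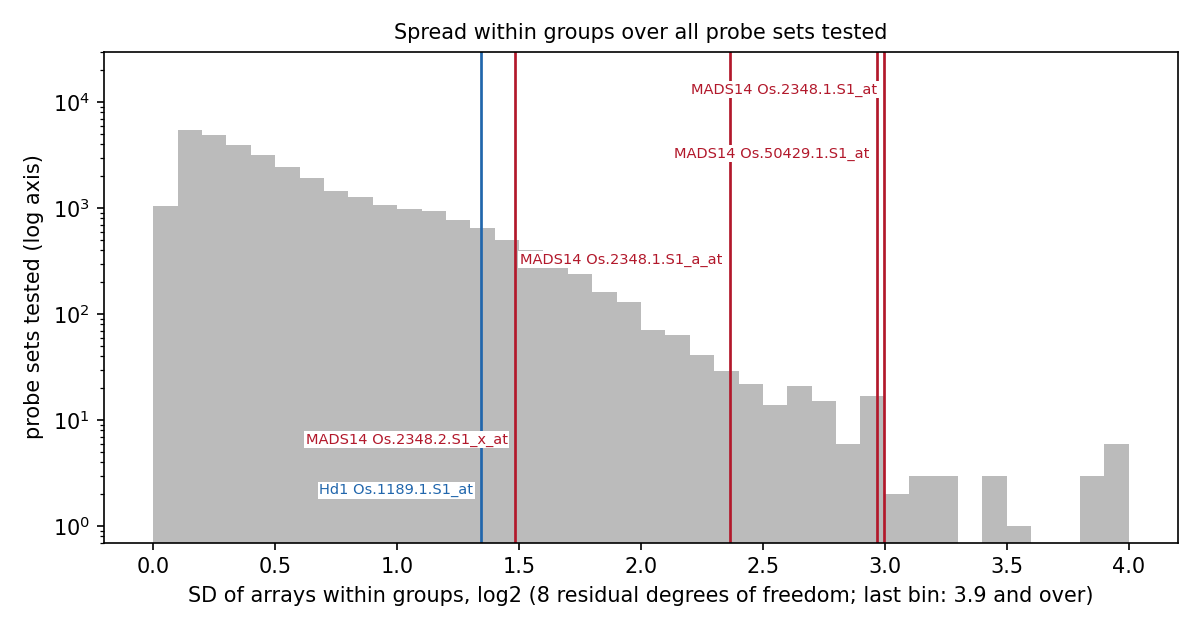
Histogram of the SD of arrays within groups (log2) over all 32012 probe sets tested, on a log axis of counts, with lines at Hd1 and at the 4 MADS14 probe sets. The median is 0.418, Hd1 lies at 1.34 and the MADS14 probe sets lie between 1.48 and 3.00.

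The florigen gene Hd3a was the closest named gene to MADS14 on 3 of its 4 probe sets, by the same measure of likeness over 12 arrays and 2635 probe sets. The root mean square difference was 1.446 from the a_at, 1.825 from the plain at and 2.092 from the separate probe set, much wider than that between Hd1 and OsSAPK7. From the x_at probe set the closest were OsSPO11B at 0.998, the floral gene MADS16 at 1.028, FH6 at 1.031, MADS15 at 1.084 and ABCG39 at 1.1. The x_at values themselves had an SD of 1.39 over the 12 arrays, so these profiles were only loosely alike. Over the same arrays the SD was 1.483 for Hd1, 2.495 on the a_at, 2.871 on the plain at and 3.161 on the separate probe set. After Hd3a, the next closest to the other 3 probe sets were CHARK, NIP1-1, MADS16, METK3, OsSPO11B, EREBP-1, ABCG48 and KIN7L, at 1.801 or more. Hd3a was at 4.49, 6.17 and 5.47 in osnox2 drought leaves, 7.35, 6.35 and 3.62 in WT drought leaves, 1.63, 2.33 and 1.55 in osnox2 control leaves and 5.42, 4.88 and 3.91 in WT control leaves. Its 3 highest arrays were those of MADS14, and its osnox2 control arrays were its lowest 3. On osnox2 control replicate 2, where MADS14 ranked 4, Hd3a was low. Hd3a was above the array median on 5 arrays only.

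Hd3a itself did not pass. It was higher by 3.55 ± 0.90 in osnox2 drought than in osnox2 control leaves (limma adjusted p = 0.108). The 2 groups of Hd3a did not overlap there, as for 22.8% of all probe sets tested. osnox2 minus WT under control was -2.90 ± 0.90 (adjusted p = 0.607), also without overlap, as for 8.47% of all. With an offset of 64 added to the signals before the log, the drought difference in osnox2 was 0.68 and osnox2 minus WT under control was -0.45. Without osnox2 control replicate 3 the drought difference in osnox2 was 3.40, with a limma adjusted p of 0.0482. In that setting 5505 of all 32012 probe sets tested were called for this comparison.

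Among the MADS-box relatives of MADS14, the 3 highest arrays of MADS14 were only partly shared. MADS15, its closest relative, had 2 of these 3 among its own highest 3, MADS18 had 1 and the neighbouring gene MADS34 had 1. MADS15 was above the array median on 4 of the 12 arrays and MADS34 on 1, while MADS18 was above it on all 12. MADS15 differed by 1.15 ± 0.44 for drought in WT (limma adjusted p = 0.383) and by 0.04 ± 0.44 for drought in osnox2 (adjusted p = 0.974).

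Around the 2 genes, a list of 53 photoperiod, flowering and clock genes was read out. The annotation used here held 42 of them by name, 38 had a probe set and 33 were tested. With all 12 arrays limma called 0 of the 33 in each of the 5 comparisons. At an unadjusted p under 0.05 there were 7 for drought in osnox2 and 5 for drought in WT, where 18% and 10.8% of all probe sets tested reached that level. For osnox2 against WT there were 4 under control and 2 under drought, beside 6.86% and 5.02% of all, and the interaction gave 1, beside 3.36%. The list median was -0.02 for drought in osnox2, against 0.08 over all probe sets tested, and 0.02 for drought in WT, against 0.02 over all.

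Without the 3 control arrays, 3 of the 33 genes passed for drought in WT, where 2.97% of all probe sets tested were called. With a term for these arrays in place of leaving them out, MADS50 alone of the 3 passed (adjusted p = 0.0306), while DTH8 had an adjusted p of 0.0519 and LHY one of 0.0866. LHY was higher by 1.03 ± 0.19 without the 3 arrays (limma adjusted p = 0.0299), and its difference was -1.11 ± 1.71 with all 12 (adjusted p = 0.869). Since LHY is among the clock genes by which the 3 arrays stand apart, its value without them is a description. DTH8, an NF-Y subunit that works with Hd1 as a repressor of flowering in long days, fell by 1.64 ± 0.28 without these arrays. The 3 arrays left out held the lowest DTH8 values of the study, so this value is a description too. MADS50, the rice relative of Arabidopsis SOC1 and a promoter of flowering, fell by 0.64 ± 0.13 (adjusted p = 0.0404). In the other 4 comparisons limma called 0 of the 33 without these arrays. Of all probe sets tested it called 1.44% for drought in osnox2, 0.275% for osnox2 against WT in control leaves, 0.59% in drought leaves, and 0.025% for the interaction. At an unadjusted p under 0.05 there were 8 of the 33 for drought in osnox2, beside 14.7% of all probe sets, and 6 for osnox2 against WT under control, beside 10.4%. Under drought there were 7 for osnox2 against WT, beside 11.9% of all, and the interaction gave 1, beside 7.31%.

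DTH8 was low on the same 3 arrays as Hd1, at 6.16 to 6.73, but its drought arrays were lower than its other control arrays. DTH8 was at 7.14, 7.25 and 6.88 in osnox2 drought leaves and at 7.97, 7.01 and 7.32 in WT drought leaves. The remaining control arrays of DTH8 were at 8.21 in osnox2 and at 9.01 and 9.13 in WT, all above the 6 drought arrays. How many of all probe sets show such a pattern was not counted. With all 12 arrays DTH8 differed by -0.10 ± 0.71 for drought in osnox2 (adjusted p = 0.958) and by -0.67 ± 0.71 in WT (adjusted p = 0.797).

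MADS50 was lower on every drought array than on every control array of either genotype. How many of all probe sets show this was not counted. Over all probe sets tested, 22.8% were separate for drought in osnox2 and 18% for drought in WT. MADS50 was at 10.27, 10.10 and 10.27 in osnox2 drought leaves and at 9.98, 9.67 and 9.98 in WT drought leaves. In control leaves it was at 10.74, 10.47 and 10.86 in osnox2 and at 10.73, 10.45 and 10.58 in WT. With all 12 arrays the differences missed the threshold, at -0.48 ± 0.15 in osnox2 (limma adjusted p = 0.156) and -0.71 ± 0.15 in WT (adjusted p = 0.104). MADS55, a relative of the SVP repressors of Arabidopsis, was high on the 3 control arrays, between 13.14 and 13.34, and lay between 11.70 and 12.31 on the rest.

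The phytochromes are the red and far-red light receptors of the photoperiod pathway, and none of their differences passed with all 12 arrays or without the 3 control arrays. PHYA on its s_at probe set differed by 0.61 ± 0.19 for drought in osnox2 (limma adjusted p = 0.156) and by 0.13 ± 0.13 without the 3 arrays (adjusted p = 0.718). Without osnox2 control replicate 3 PHYA passed, at 0.85 for drought in osnox2 (adjusted p = 0.00384) and at -0.76 for osnox2 minus WT under control (adjusted p = 0.0181). In that setting 5505 and 1249 of all 32012 probe sets tested were called in these comparisons. PHYC differed by 0.45 ± 0.17 for drought in WT (adjusted p = 0.389) and by 0.28 ± 0.17 in osnox2 (adjusted p = 0.412). On its s_at probe set PHYA lay between 10.89 and 11.63 on the 3 control arrays and between 11.71 and 11.99 on the rest. There it too was lowest where Hd1 was lowest. On its other tested probe set the 3 control arrays were at 9.39 to 9.83 and the rest at 9.70 to 10.03, so they overlapped.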

How the data were processed

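The authors deposited log2 expression values for 12 rice arrays, made with MAS5 per the submitters' processing notes, where no version is named. On the linear scale the mean without the lowest and highest 2% was 497 or 498 on every array, and each array had 996 to 1785 probe sets at the table's lowest value. The genome build of the array design is not given in the sources used here, so no coordinates are printed. Values were used without further normalization. Probe sets were matched to genes by accession in the ASM3414082v1 annotation: 22436 matched 1 gene and 95 matched several, after 64 control probe sets were set aside.

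The filter kept the 32012 probe sets that exceeded the median of an array on 3 or more of the 12. One mean per group was fitted with limma 3.58.1 in R 4.3.3 (lmFit, and eBayes with a trend on intensity). The 5 contrasts were two-sided, p-values were adjusted by Benjamini-Hochberg over everything the filter kept, and calls needed an adjusted p under 0.05. P-values measure the spread between these arrays. Simulated data with known changes were used to check the model. Tables and figures were made with matplotlib 3.10.9, pandas 2.3.3, numpy 2.4.6 and Python 3.11.15.

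The text names every probe set of Hd1 and MADS14, the called flowering genes and otherwise the 8 with the smallest p, and the 5 closest profiles per probe set. LHY, PCL1, MADS18, MADS34, DL, MADS4 and MADS21 were added after their values were seen. The members, the lists and the 3 arrays left out were chosen with earlier results of these data known. The labels do not say whether replicate numbers pair the arrays. Of 18 same-numbered pairs, 5 had residual correlations over 0.1, and the highest was 0.368. Among arrays of other groups, 6 of the 12 arrays correlated best with an array of their own number. With 3 arrays a group, these correlations cannot settle whether the numbers pair the arrays. Alternatives were other filters, offsets of 16 and 64, quantile normalization, centring, no trend, only the 2 groups compared, a replicate block, a term for or a fit without the 3 arrays, and each array left out.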

Additional observations from a re-analysis of the deposited data

Results flagged for a closer look

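Hd1, MADS14 and the 8 flowering genes with the smallest p were looked at here. In 2 of them, every drought array lay on opposite sides of the control mean in the 2 genotypes. For neither did the difference in drought response pass the test. The 8 were chosen by their p in these same comparisons. How many of all probe sets show the pattern was not counted, so it is a description. MADS1, a floral MADS-box gene, was at 5.21, 5.91 and 5.93 in osnox2 drought leaves, 7.05, 7.35 and 6.76 in WT drought leaves, 5.96, 6.02 and 6.80 in osnox2 control leaves and 7.61, 5.87 and 6.15 in WT control leaves. The drought response of MADS1 in osnox2 minus that in WT was -1.08 (limma adjusted p = 0.986), and -2.16 without the 3 control arrays that stand apart (adjusted p = 0.338).

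NFYB8, an NF-Y subunit, was at 10.45, 10.55 and 10.71 in osnox2 drought leaves, 10.98, 11.07 and 10.92 in WT drought leaves, 11.60, 11.58 and 10.64 in osnox2 control leaves and 10.34, 10.84 and 10.96 in WT control leaves. Its drought response in osnox2 minus that in WT was -0.98 (limma adjusted p = 0.986), and -0.16 without the 3 control arrays (adjusted p = 0.922).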

How the results depend on the processing

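With 3 arrays a group and a wide spread within groups, intervals are broad for both genes. Over the alternatives, 565 differences of the 5 probe sets were computed: 536 kept direction and side of the threshold, 28 had the opposite sign and 1 passed. The cause was not tested for any of these. Hd1 for drought in WT was 0.24 with all arrays, -0.845 without the 3 control arrays, -0.834 with a term for them, and -0.845 to 0.806 with single arrays left out. For drought in osnox2 Hd1 lay between 1.537 and 3.297 with single arrays left out. The x_at probe set of MADS14 had an interaction of 0.03 with all arrays, -0.024 with an offset of 16, -0.115 with an offset of 64 and -0.09 after quantile normalization. The interaction was -0.205 and -0.488 with these offsets on the a_at probe set and -0.03 and -0.28 on the separate one, and -0.25 with an offset of 64 on the plain at probe set. With single arrays left out, x_at ranged from -0.077 to 1.732 for drought in osnox2, -1.739 to 0.186 for osnox2 minus WT under drought and -1.043 to 0.881 for the interaction. The interaction ranged from -0.808 to 2.246 on a_at, -1.051 to 2.954 on plain at and -0.681 to 3.425 on the separate probe set, and plain at ranged from -3.331 to 0.674 for osnox2 minus WT under drought.

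Of the other genes without the 3 control arrays, the MADS50 interaction was -0.006, MADS1, NFYB8 and MADS55 differed by 0.788, -0.258 and -0.038 for osnox2 minus WT under control, and the MADS55 interaction was 0.266 (0.174 with a term for the 3 arrays). With that term PHYA was -0.034 for drought in WT. Centring put PHYA at 0.019 for osnox2 minus WT under drought, and quantile normalization put PHYC at 0 under control. With single arrays left out, osnox2 minus WT under drought ranged from -1.469 to 0.397 for Hd3a and -0.087 to 0.028 for PHYA. osnox2 minus WT under control ranged from -0.622 to 0.25 for MADS1 and -0.143 to 0.111 for PHYC. The MADS55 interaction ranged from -0.518 to 0.049, and MADS15 for drought in osnox2 from -0.206 to 0.275. The flowering list had 0 calls for drought in WT, 3 without the 3 control arrays and 1 with a term for them. With single arrays left out it had 0 to 8 calls for drought in osnox2 and 0 to 2 for osnox2 minus WT under control. The 8 and the 2 came without osnox2 control replicate 3, where 5505 and 1249 of all 32012 probe sets tested were called in these 2 comparisons. Without that array Hd3a, PHYA, NFYB8 and MADS55 were among those called for drought in osnox2.

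Whether replicate numbers pair the arrays was not settled. With a replicate block Hd1 for drought in osnox2 was 2.23 (limma adjusted p = 0.185), and no call of either gene changed. Over all probe sets, calls moved widely with the setting: from 2 to 950 for drought in WT (42 with all arrays and the settings of the report), 5 to 5505 for drought in osnox2 (170), 13 to 1249 for osnox2 minus WT under control (42), 13 to 189 under drought (33) and 0 to 46 for the interaction (0). Without the 3 control arrays they were 950, 462, 88, 189 and 8 in the same order.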
